A study of Homo sapiens with 9 samples.

Results

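Histone genes were followed across 9 Affymetrix U133A arrays of A673, an established line grown from a Ewing sarcoma with the EWS/FLI translocation. Their members were all probe sets whose only annotated gene is a core or linker histone gene, by its current symbol (H1, H2A, H2B, H3 or H4 names) or by an older symbol of the HIST, H1F, H2AF, H2BF or H3F kind, with pseudogenes left out. This gave 60 probe sets of 51 genes, out of 19065 probe sets and 11963 genes that a single gene name could be given to. All cells were A673, and each group is 1 treatment of that line. Some cells were transfected for 48 hours with siRNA at 5 nM, as control siRNA (2 arrays), EZH2 siRNA no.2 (2 arrays) or another EZH2 siRNA whose title carries no number and is called the unnumbered EZH2 siRNA here (1 array). Others were kept for 24 hours in 0.01% DMSO (2 arrays) or in trichostatin A (TSA) at 100 nM (2 arrays). EZH2 is the methyltransferase of Polycomb repressive complex 2 and acts on histone H3, and TSA inhibits the deacetylases that remove acetyl groups from histone tails. The sample titles call the numbered replicates biological, but nothing says how they were cultured, so the p-values below measure only the spread between these arrays.

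DNA is wound around an octamer of the core histones H2A, H2B, H3 and H4, and the linker histone H1 binds where the DNA enters and leaves. Most core and linker histones come from many near-identical genes packed in clusters, which are transcribed mainly in S phase and whose mRNAs typically end in a stem-loop and not in a poly(A) tail. Variant histones such as H2AZ1, H2AX and H3-3A come from single genes outside the clusters, mostly give polyadenylated mRNA and are made through the whole cell cycle. The labels do not name the primer used to copy the RNA, so how well mRNA without a poly(A) tail was copied is not known.

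Of the 51 genes, 40 were counted by their symbols as cluster genes (41 probe sets) and 11 as single genes (19 probe sets), and 38 of the genes lie on chromosome 6. By this rule H2BC12L, an H2B gene on chromosome 21, and H3-4, an H3 gene on chromosome 1, were counted with the single genes.

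The upstream sequences of 6 genes are shown because in each of them a tested probe set had both TSA arrays above both DMSO arrays, as described further down (for H2AZ2, 1 of 3 tested probe sets). That order was also seen in 16.1% of all tested probe sets. Each runs 5′ to 3′ over the 250 bases before the gene's start, from RefSeq on GRCh38.p14. Capitals mark matches on either strand to the CCAAT box (CCAAT), to a TATA box written as TATAAA and to the octamer bound by the factor POU2F1, written as ATTTGCAT. Read along the printed strand, the other strand reads ATTGG for the first, TTTATA for the TATA box and ATGCAAAT for the octamer.
H2AC6, chr6:26123922-26124171, plus strand: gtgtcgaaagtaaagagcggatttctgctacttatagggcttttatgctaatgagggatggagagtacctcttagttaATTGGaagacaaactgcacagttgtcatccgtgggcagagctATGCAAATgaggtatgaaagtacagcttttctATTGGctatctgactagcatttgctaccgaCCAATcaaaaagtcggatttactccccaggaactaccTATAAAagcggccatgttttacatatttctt
H2BC9, chr6:26251364-26251613, plus strand: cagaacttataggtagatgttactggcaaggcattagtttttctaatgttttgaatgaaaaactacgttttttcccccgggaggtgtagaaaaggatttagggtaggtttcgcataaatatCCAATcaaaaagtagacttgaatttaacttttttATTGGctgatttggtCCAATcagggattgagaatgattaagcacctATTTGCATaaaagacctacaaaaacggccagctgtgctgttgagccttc
H2BC12, chr6:27146859-27147108, minus strand: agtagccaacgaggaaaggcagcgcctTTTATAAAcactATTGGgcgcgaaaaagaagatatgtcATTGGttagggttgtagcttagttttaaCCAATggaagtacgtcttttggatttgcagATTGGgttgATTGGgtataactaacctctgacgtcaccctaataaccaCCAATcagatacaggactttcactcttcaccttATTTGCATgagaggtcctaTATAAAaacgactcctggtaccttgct
H4C8, chr6:26285535-26285784, minus strand: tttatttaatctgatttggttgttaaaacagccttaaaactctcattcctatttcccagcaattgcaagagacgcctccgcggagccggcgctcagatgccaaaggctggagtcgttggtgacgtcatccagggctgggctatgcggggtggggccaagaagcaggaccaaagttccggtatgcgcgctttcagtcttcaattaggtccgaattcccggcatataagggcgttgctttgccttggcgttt
H2AZ2, chr7:44848088-44848337, minus strand: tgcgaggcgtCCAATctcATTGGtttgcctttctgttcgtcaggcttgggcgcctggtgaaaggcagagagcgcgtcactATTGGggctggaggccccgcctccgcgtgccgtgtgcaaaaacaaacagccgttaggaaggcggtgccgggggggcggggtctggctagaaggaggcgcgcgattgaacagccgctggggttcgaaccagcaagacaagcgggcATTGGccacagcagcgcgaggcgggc
MACROH2A2, chr10:70052596-70052845, plus strand: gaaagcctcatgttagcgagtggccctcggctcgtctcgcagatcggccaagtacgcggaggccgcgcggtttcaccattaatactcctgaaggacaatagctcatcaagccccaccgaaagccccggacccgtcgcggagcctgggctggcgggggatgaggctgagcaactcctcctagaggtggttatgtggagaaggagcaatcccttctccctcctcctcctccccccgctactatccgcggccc

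The 3 H2A and H2B cluster genes in this set carry CCAAT in several copies and 1 octamer each. The octamer lies at -130 to -123 in H2AC6 (counted back from the start), at -49 to -42 in H2BC9 and at -46 to -39 in H2BC12. TATAAA lies at -31 to -26 in H2AC6 and at -27 to -22 in H2BC12. In H2BC12 the upstream pair of TATAAA matches, on opposite strands, overlap. H2AZ2 holds CCAAT in 4 places, and none of the 3 motifs was found in the windows of H4C8 and MACROH2A2, which says only that these letters are not in those windows.

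Among all histone genes, 48 of 51 matched a RefSeq window, and H2BC12L, H3C11 and H4C1 did not. CCAAT was present in 85.4% of the 48 against 32.0% of all 35116 windows of the same length. TATAAA was present in 62.5% against 10.7%, and the octamer in 29.2% against 1.63%. A gene with several windows was counted if any of them held the motif, while the share over all windows counts each window. The octamer was confined, among the windows searched, to cluster genes for H2A (6 of 8) and H2B (8 of 11), and it was in 0 of 10 single genes and in 0 windows of the H1, H3 and H4 cluster genes. All 6 H1 and all 6 H3 cluster genes matched held CCAAT, against 2 of 7 H4 cluster genes. Several H2A and H2B genes are transcribed away from each other, so their windows can share bases, as for H2AC14 and H2BC14 or H2AC15 and H2BC15. These matches describe the letters only and are no evidence of binding.

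Signals are MAS5 values on a linear scale, without detection calls. The trimmed mean was close to 500.2 on every array and the median signal ran from 125 to 159. Ratios of the 3′ to the 5′ probe sets, a sign of RNA integrity, ran from 1.03 to 1.44 (ACTB) and from 0.846 to 1.03 (GAPDH). The hybridisation controls, 18 probe sets for RNA added before hybridisation, averaged 10.49 to 10.59 (log2) on the 4 replicate 2 arrays and 9.89 to 10.23 on the other 5. Markers of the Ewing sarcoma line were well measured (8 of 8 probe sets, mean signals 2618 to 17676), with sums per array of 52169 to 78094. Of the markers of other cells, 0 of 4 epithelial, 1 of 5 blood and 1 of 5 endothelial probe sets passed the filter on low values, with sums per array of 29.9 to 53.3, 84.8 to 243 and 177 to 247. For the fibroblast list 9 of 11 passed, with sums of 7466 to 17879.

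A probe set was tested if its mean signal over the 9 arrays was at least 53.3, which is the 30th percentile of all. This kept 31 histone probe sets of 23 genes. Of the 29 others, 25 belong to cluster genes, their mean signals ran from 4.63 to 52.0 with a median of 19.3, and the highest single signal among them was 102. All but 1 of the 6 H1 cluster probe sets and all but 1 of the 7 H3 cluster probe sets were among those left out, against 3 of the 15 single-gene H2A probe sets. By class, 1 of 6 probe sets was tested for the H1 cluster, 4 of 8 for H2A, 6 of 12 for H2B, 1 of 7 for H3 and 4 of 8 for H4. The member probe sets of cluster genes were thus dim as a group, which limits what these arrays can show for them. At the same number of arrays the median standard error of a log2 fold change was 0.41 for the 16 cluster probe sets and 0.28 for the 15 single-gene probe sets. Some probe sets that name several cluster genes at once were brighter, as described further down. Probe sets whose name ends in _x_at can bind several near-identical genes, and 7 of the 31 were of that kind, so a value below stands for a probe set and not strictly for 1 gene.

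The targeted gene was looked at first. EZH2 (203358_s_at) gave signals of 1130 and 1172 on the control siRNA arrays, 572 and 271 on those of EZH2 siRNA no.2 and 681 on that of the unnumbered one. It gave 990 and 861 in DMSO and 1257 and 1055 in TSA. The siRNA arrays were below both controls. The log2 fold change was −1.48 (SE 0.32) with EZH2 siRNA no.2, which did not pass when adjusted over all 13665 probe sets (limma, adjusted p = 0.920).

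The comparison of EZH2 siRNA no.2 with the control siRNA asked which genes change when EZH2 is reduced. No histone gene passed the test. H2BC12L and the H4 gene H4C11 had the lowest values relative to the control, and the linker histone H1-10 and the cluster genes H2BC21 and H4C4 lay above the control in both arrays. The median log2 fold change was 0.02 over the 31 probe sets, beside 0.07 over all tested. It was 0.08 for the 16 cluster probe sets and −0.04 for the 15 single-gene probe sets. The sign of the 0.02 depended on the settings: it was −0.07 without the filter, −0.12 with all arrays at the same median, −0.02 after quantile normalization, −0.07 without control siRNA replicate 2 and −0.10 without EZH2 siRNA no.2 replicate 2.

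H2BC12L (208579_x_at) had signals of 916 and 396 on the control arrays and 217 and 346 after EZH2 siRNA no.2. The arrays of the 2 groups did not overlap, but the control arrays themselves differed more than 2-fold. The log2 fold change was −1.07 (SE 0.45, limma, unadjusted p = 0.037, adjusted p = 0.920), and without control siRNA replicate 1 it was −0.49. H4C11, an H4 gene of the chromosome 6 cluster, had signals of 241 and 141 against 22.8 and 134. The low value came from EZH2 siRNA no.2 replicate 1. Its log2 fold change of −1.27 (SE 0.65) was −0.40 without that array. H2AZ2 codes for a variant of H2A found near gene starts. Its probe set 202487_s_at gave 3916 and 4127 against 2272 and 3380 (log2 −0.53, SE 0.28), while its other 2 probe sets gave log2 fold changes of −0.07 (212205_at) and 0.03 (212206_s_at).

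In the other direction, H2BC21, a chromosome 1 H2B gene, had signals of 123 and 117 on the control arrays and 164 and 162 after EZH2 siRNA no.2 (log2 0.37, SE 0.29). H4C4 had 69.6 and 92.7 against 103 and 148 (log2 0.50, SE 0.39). The linker histone H1-10 had 1371 and 1291 against 1381 and 1972 (log2 0.31, SE 0.28). These 3 were the tested histone probe sets above both controls, and their intervals all included 0. The unnumbered EZH2 siRNA gave 121 for H2BC21, 81.5 for H4C4 and 1275 for H1-10, close to the control means of 119.9, 81.1 and 1331. DMSO, without any siRNA, gave log2 differences from the same controls of 0.38, 0.39 and 0.50.

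The single genes H2AZ1, H2AX and H3-3A were followed in every comparison. H2AZ1 (200853_at) had 10034 and 9135 on the control arrays and 7683 and 8240 after EZH2 siRNA no.2 (log2 −0.27, 95% interval −0.89 to 0.36). H2AX, the variant phosphorylated at DNA breaks, had 8628 and 8049 against 7908 and 9108 in its brightest probe set (205436_s_at, log2 0.03, 95% interval −0.43 to 0.49). H3-3A, which codes for the replacement histone H3.3, had 298 and 418 against 233 and 503 (log2 −0.04, 95% interval −0.82 to 0.75). In these probe sets the interval lay within a 2-fold change for all 3 genes. Brighter probe sets that name H3-3A together with H3-3B are described further down, and their values were lower.

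Over the 13665 probe sets, 0% passed an adjusted p of 0.05 (limma), and the histone genes had 0 of 31. At an unadjusted p below 0.05, 3.56% of all probe sets were higher and 1.71% lower, against 0 and 1 of the 31 (H2BC12L). The 2 groups did not overlap for 22.4% of all probe sets in the higher direction and 12.8% in the lower direction, against 3 and 6 of the 31. The 6 lower ones were H2BC12L, H4C11, 1 probe set each of H2AZ1 and H2AZ2, and 2 of MACROH2A1. The 95% interval lay within a 2-fold change for 18 of the 31, of which 13 were single-gene and 5 cluster probe sets. For the other 13 a 2-fold change in at least 1 direction was not excluded.

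**Figure D1:**
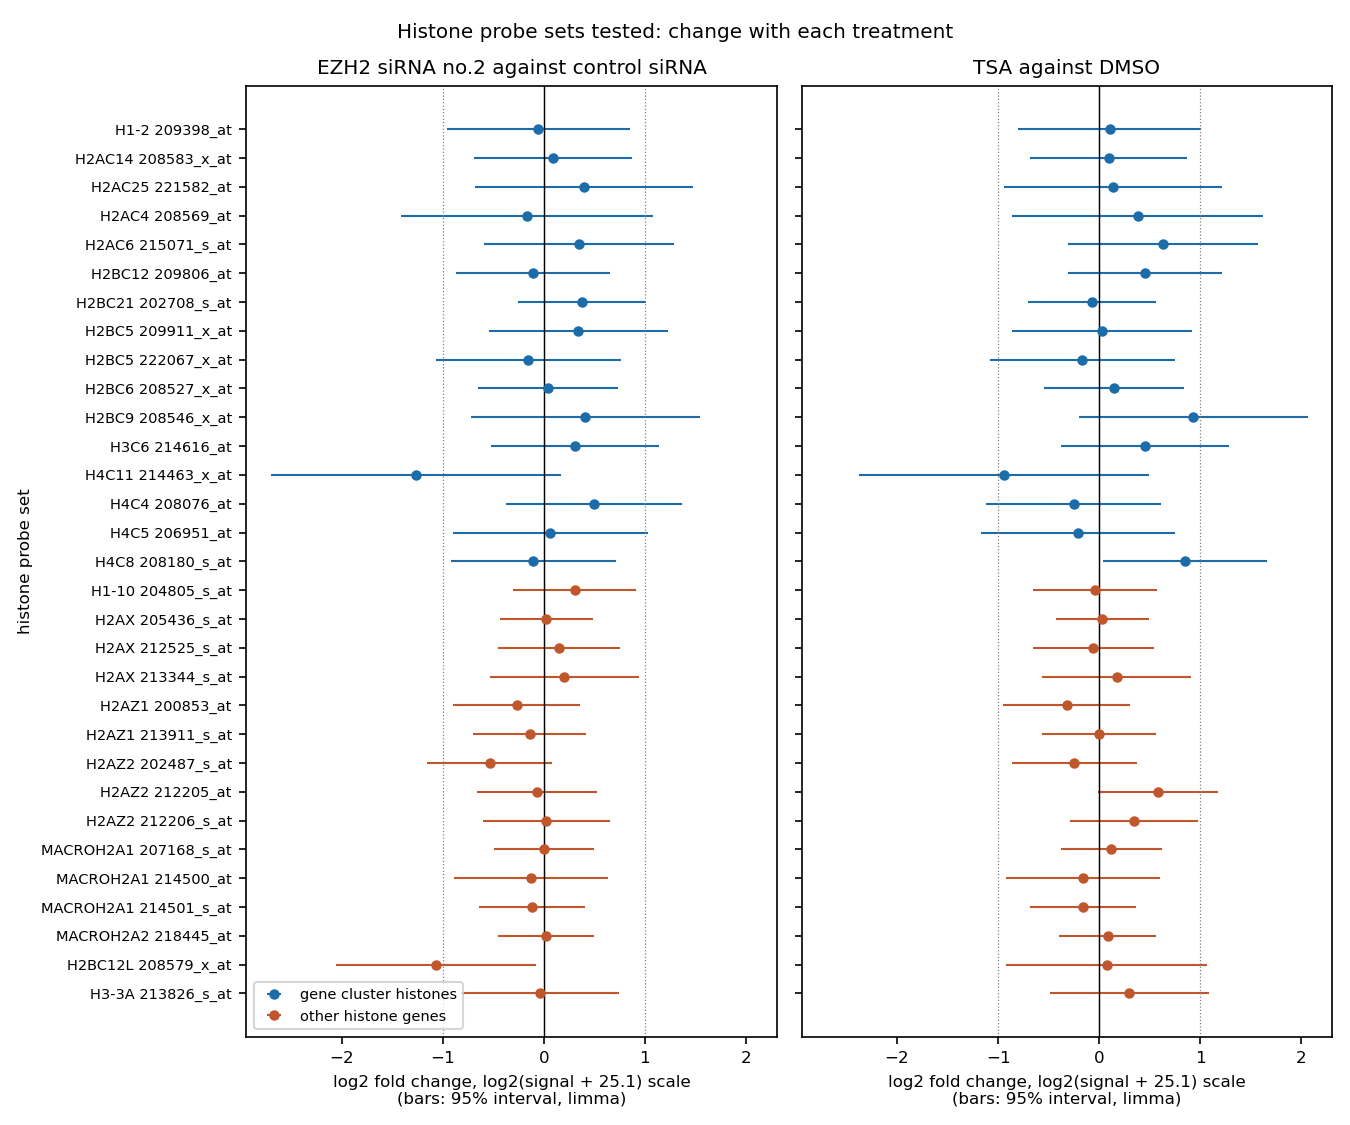
Log2 fold change (horizontal axis, log2(signal + 25.1) scale) of the 31 histone probe sets tested, for EZH2 siRNA no.2 against control siRNA and for TSA against DMSO, with limma's 95% interval as bars, cluster genes in blue, single genes in brown and dotted lines at a 2-fold change. H2BC12L has an interval below 0 on the left and H4C8 one above 0 on the right, both before adjustment, and the bars of the cluster genes are wider than those of most single genes.

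TSA was compared with DMSO to ask which genes change when deacetylases are inhibited. No histone gene passed the test. In 6 tested histone probe sets (19.4%, beside 16.1% of all tested) both TSA arrays were above both DMSO arrays. In 0 tested histone probe sets (beside 12.1% of all tested) both were below. The 6 were of the cluster genes H2AC6, H2BC9, H2BC12 and H4C8 and the single genes H2AZ2 (1 of 3 tested probe sets) and MACROH2A2. Below the filter, probe sets of H2AJ, H3C7 and H4C13 had the same order. Those of H1-5, H2BC3, H2BC15, H2BC17, H3C1 and H3-4, also below the filter, had both TSA arrays below both DMSO arrays. No share over all probe sets below the filter was taken. The median log2 fold change was 0.09 over the 31 probe sets, beside 0.04 over all tested, with 0.12 for the cluster and 0.03 for the single genes. Without TSA replicate 2 the median of the 31 was −0.17, and without TSA replicate 1 it was 0.25.

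H4C8, an H4 cluster gene, had signals of 42.5 and 28.8 in DMSO and 76.0 and 91.5 in TSA. It was the one histone probe set with an unadjusted p below 0.05 here (log2 0.85, SE 0.37, limma, unadjusted p = 0.042, adjusted p = 1.00). Its control siRNA signals were 66.9 and 59.5, nearer to TSA than to DMSO. H2BC9, an H2B cluster gene, had 41.4 and 54.5 in DMSO against 68.8 and 180 in TSA (log2 0.93, SE 0.51), and the difference came mostly from TSA replicate 2.

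H2BC12, a brighter H2B cluster gene, had 1037 and 936 in DMSO against 1070 and 1729 in TSA (log2 0.46, SE 0.35). H2AC6, the first of the genes printed above, had 331 and 304 against 580 and 438 (log2 0.63, SE 0.43). Both H2AC6 arrays in TSA were above both in DMSO, but the control siRNA arrays spanned 181 to 488. The variant H2AZ2 (212205_at) had 1659 and 2195 against 3368 and 2457 (log2 0.59, SE 0.27, limma, unadjusted p = 0.052, adjusted p = 1.00), while its probe set 202487_s_at had 3758 and 2786 against 2279 and 3258 (log2 −0.25). The third, 212206_s_at, gave 781 and 843 against 1283 and 839 (log2 0.35, SE 0.29), so 2 of the 3 probe sets had a value above 0 and 1 below. MACROH2A2, the gene of a large H2A variant, had 2148 and 2131 against 2278 and 2265, a log2 fold change of 0.09 (SE 0.22).

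**Figure D2:**
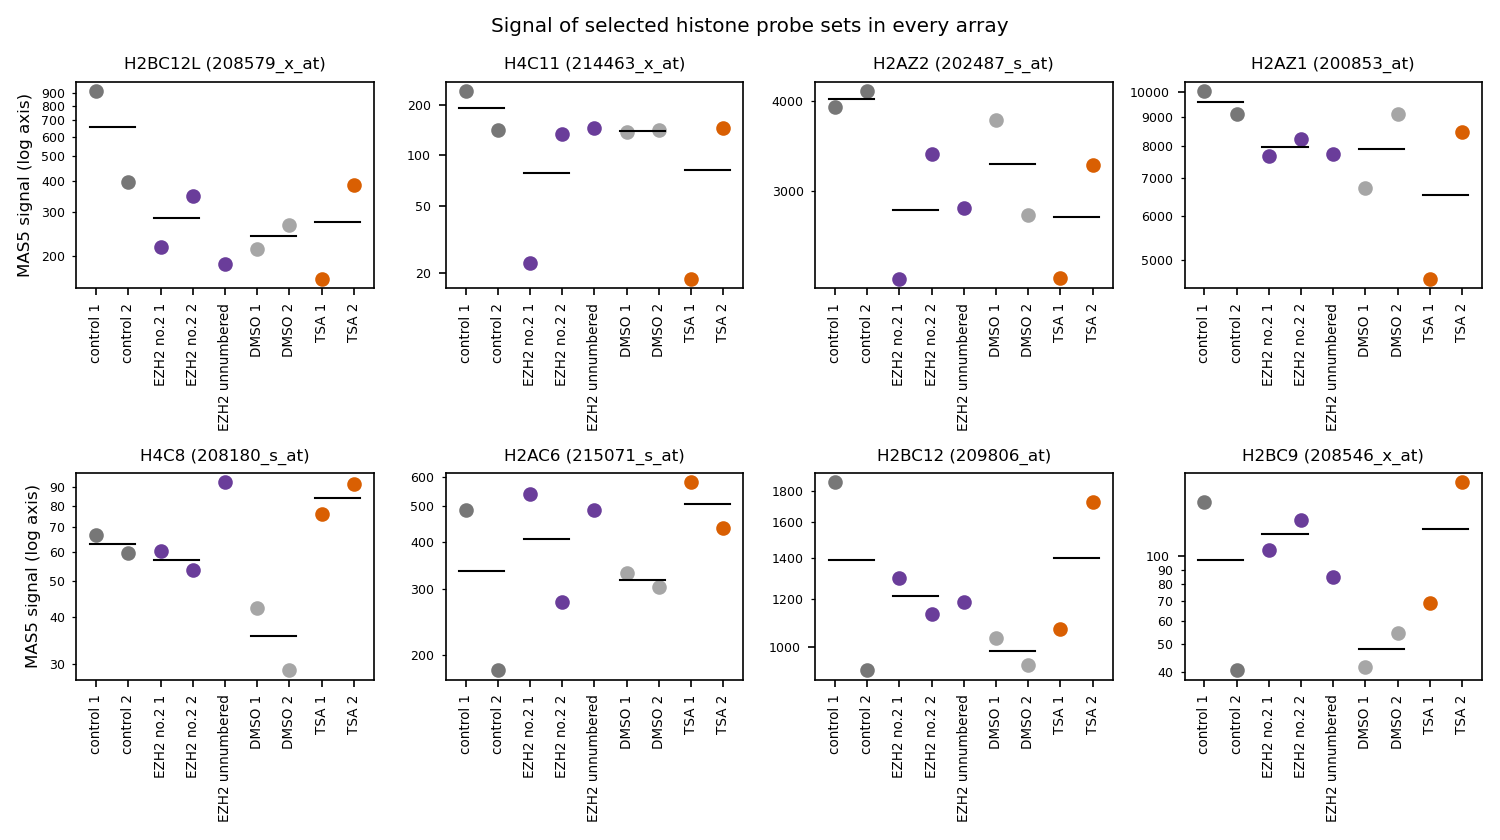
MAS5 signal (log axis) of 8 histone probe sets on each array, with control siRNA and DMSO in grey, EZH2 siRNA arrays in purple, TSA in orange and a bar at the mean of each group of 2. Control replicate 1 stands highest for H2BC12L, EZH2 siRNA no.2 replicate 1 and TSA replicate 1 are the low points of H4C11, and the 2 TSA arrays of H4C8 lie above the DMSO arrays.

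H2AZ1 (200853_at) had 6720 and 9107 in DMSO against 4630 and 8471 in TSA (log2 −0.32, 95% interval −0.95 to 0.31). H2AX (205436_s_at) had 7833 and 7773 against 7173 and 8838 (log2 0.03, 95% interval −0.43 to 0.49). H3-3A had 308.5 and 413 against 406 and 488 (log2 0.30, 95% interval −0.49 to 1.08). H4C11 was again low on 1 array, with 138 and 142 in DMSO against 18.5 and 145 in TSA (log2 −0.94, SE 0.65).

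Over all probe sets 0% passed the adjusted threshold, and the histone genes had 0 of 31. At an unadjusted p below 0.05, 1.24% of all were higher and 1.17% lower, against 1 and 0 of the 31. Groups did not overlap for 16.1% of all in the higher and 12.1% in the lower direction, against 6 and 0 of the 31. The interval lay within a 2-fold change for 16 of the 31, of which 4 were cluster and 12 single-gene probe sets.

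The median absolute difference between the 2 TSA arrays was 0.55 (log2) over the 31 histone probe sets and 0.38 over all probe sets, beside 0.24 to 0.37 and 0.29 to 0.33 in the other groups of 2. Replicate 2 was above replicate 1 for 25 of 31 histone probe sets in TSA (80.6%, beside 49.1% of all probe sets), for 22 of 31 after EZH2 siRNA no.2 (71.0%, beside 53.6%), for 15 of 31 in DMSO (48.4%, beside 53.1%) and for 8 of 31 with the control siRNA (25.8%, beside 57.0%). In TSA the median difference was 0.50 (log2) over the 31, 0.55 over the cluster probe sets and −0.01 over all probe sets. This is larger than the median difference between TSA and DMSO. TSA replicate 1 was the lowest of the 9 arrays for 10 of the 31 (beside 13.0% of all probe sets) and the highest for 5 (beside 18.2%). TSA replicate 2 was the highest for 7 (beside 9.29%) and the lowest for 0 (beside 9.05%). Control siRNA replicate 1 was also the highest for 7 (beside 7.33%), and EZH2 siRNA no.2 replicate 2 was also the lowest for 0 (beside 8.75%). The ACTB ratio of 3′ to 5′ probe sets was 1.25 on TSA replicate 1 and 1.44, the highest of the 9, on replicate 2. The GAPDH ratio was 0.846, the lowest of the 9, and 1.02, and the summed fibroblast markers were 17879 and 7891. Their part in the difference between these arrays was not tested.

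**Figure D3:**
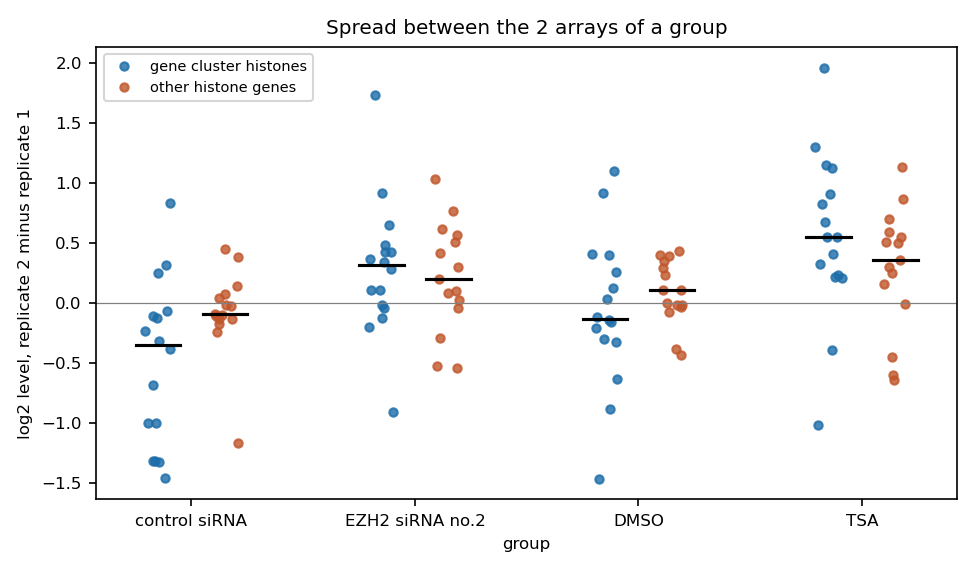
Log2 level of replicate 2 minus replicate 1 for each of the 31 histone probe sets, by group, with cluster genes in blue, single genes in brown and the median of each as a bar. The TSA points lie mostly above 0, with a median of 0.55 for cluster genes, and the control siRNA points of cluster genes mostly below 0.

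Set against the mean of the 9 arrays, the median cluster probe set stood at 0.20 and −0.22 (log2) on the control siRNA arrays, −0.02 and 0.28 after EZH2 siRNA no.2, −0.14 after the unnumbered one, −0.03 and −0.22 in DMSO, and −0.18 and 0.37 in TSA. The arrays of a group therefore lay on opposite sides of the overall mean in the control siRNA, EZH2 siRNA no.2 and TSA groups. S phase genes, 34 probe sets of 21 genes such as E2F1 and MCM5 that are active when DNA is copied, stood at 0.10 and −0.04 in TSA, at 0.13 and −0.16 with EZH2 siRNA no.2, at 0.08 and −0.06 on the control siRNA arrays and at −0.01 and −0.06 in DMSO. They were thus higher on replicate 1 in all 4 groups of 2, in the same order as the cluster histones in the control siRNA and DMSO groups and in the opposite order in the others. Whether the share of cells in S phase played a part was not tested.

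**Figure D4:**
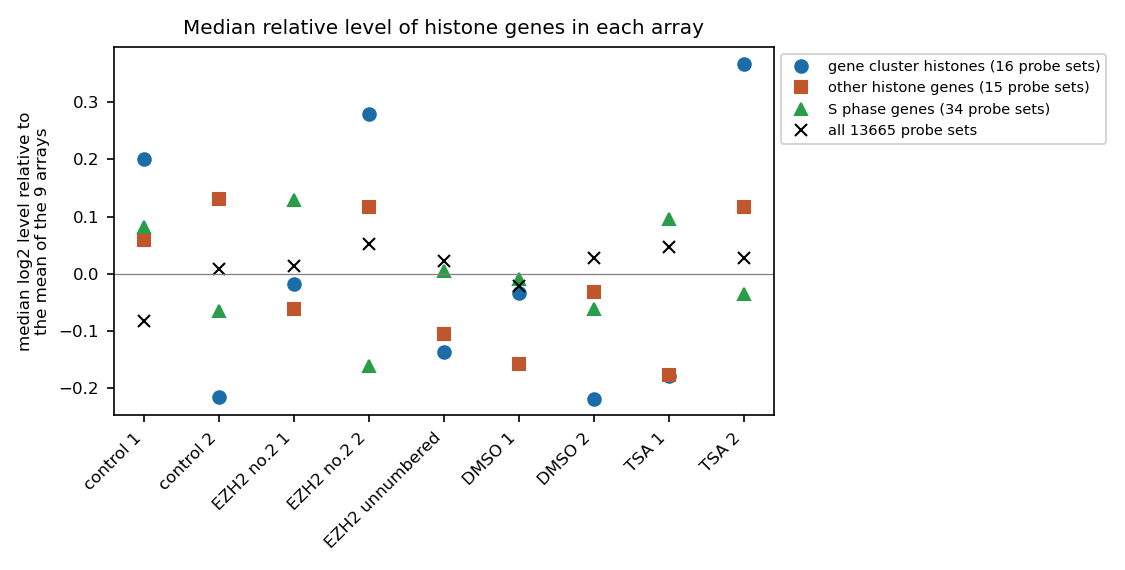
Median log2 level relative to the mean of the 9 arrays (vertical axis) on each array, for cluster histones (circles), other histone genes (squares), S phase genes (triangles) and all probe sets (crosses). Cluster histones range from −0.22 to 0.37, with TSA replicate 2 highest, while the crosses stay near 0.

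DMSO and the control siRNA were compared because they are the 2 control conditions, which differ in transfection, solvent and hours of culture. H2BC12L lay lower in DMSO, at 212 and 266 against 916 and 396 (log2 −1.26, SE 0.45, limma, unadjusted p = 0.017, adjusted p = 1.00). The H2AZ2 probe sets 212205_at and 212206_s_at were lower too, at 1659 and 2195 against 2505 and 3286 (log2 −0.58, SE 0.27) and at 781 and 843 against 1107 and 1225 (log2 −0.51, SE 0.29). H1-10 was higher, at 1908 and 1865 against 1371 and 1291 (log2 0.50, SE 0.28). None of these passed the adjusted threshold.

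The median log2 fold change of the 31 was −0.12 beside 0.03 over all, and it was 0.03 without control siRNA replicate 1. Single-gene probe sets had a median of −0.12 and cluster probe sets one of 0.05. Over all probe sets 0% passed, 2.93% were higher and 1.33% lower at an unadjusted p below 0.05, against 0 and 1 of the 31. Groups did not overlap for 19.4% of all in the higher and 14.5% in the lower direction, against 4 and 9 of the 31, and 8 of these 9 were single-gene probe sets, with all 3 probe sets of H2AZ2 among them.

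The unnumbered EZH2 siRNA has 1 array, so its error was taken from the groups of 2. H2BC12L had a signal of 186 (log2 −1.58, SE 0.55, limma, unadjusted p = 0.015, adjusted p = 0.952). H2BC5 (222067_x_at) had 89.1 beside control siRNA signals of 347 and 124 (log2 −1.05, SE 0.51), while its other tested probe set gave −0.32. H2AZ2 (202487_s_at) had 2847 (log2 −0.49, SE 0.34). In the other direction stood H2AC6 with 488 beside control siRNA signals of 488 and 181 (log2 0.66, SE 0.52). H2AC6 was thus level with control siRNA replicate 1, and its lowest log2 fold change among the alternatives was 0.00079. H1-2 had 185 beside 115 and 142 (log2 0.46, SE 0.50), and H4C8 had 92.5 beside 66.9 and 59.5 (log2 0.41, SE 0.45). The median of the 31 was −0.12 beside 0.07 over all. Over all probe sets 0% passed, and 2.81% were higher and 2.2% lower at an unadjusted p below 0.05, against 0 and 1 of the 31.

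H2BC12L lay below its control siRNA level after either EZH2 siRNA and in DMSO (log2 −1.07 for no.2, −1.58 for the unnumbered one and −1.26 for DMSO), but these 3 comparisons share the same 2 control arrays, 1 of which was the highest of all 9. Without that array the 3 values were −0.49, −0.998 and −0.68. Its TSA signals were 161 and 384, a log2 difference from DMSO of 0.07.

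The effect of TSA minus the effect of EZH2 siRNA no.2 was tested directly. The largest differences were 1.14 for H2BC12L (SE 0.64) and 0.95 for H4C8 (SE 0.52), and −0.75 for H4C4 (SE 0.56), none past the threshold. Over all probe sets 0% passed, and 0.6% were higher and 1.11% lower at an unadjusted p below 0.05, against 0 and 0 of the 31. The interval lay within a 2-fold change for 6 of the 31, so that most differences between the 2 effects could not be bounded that closely.

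**Figure D5:**
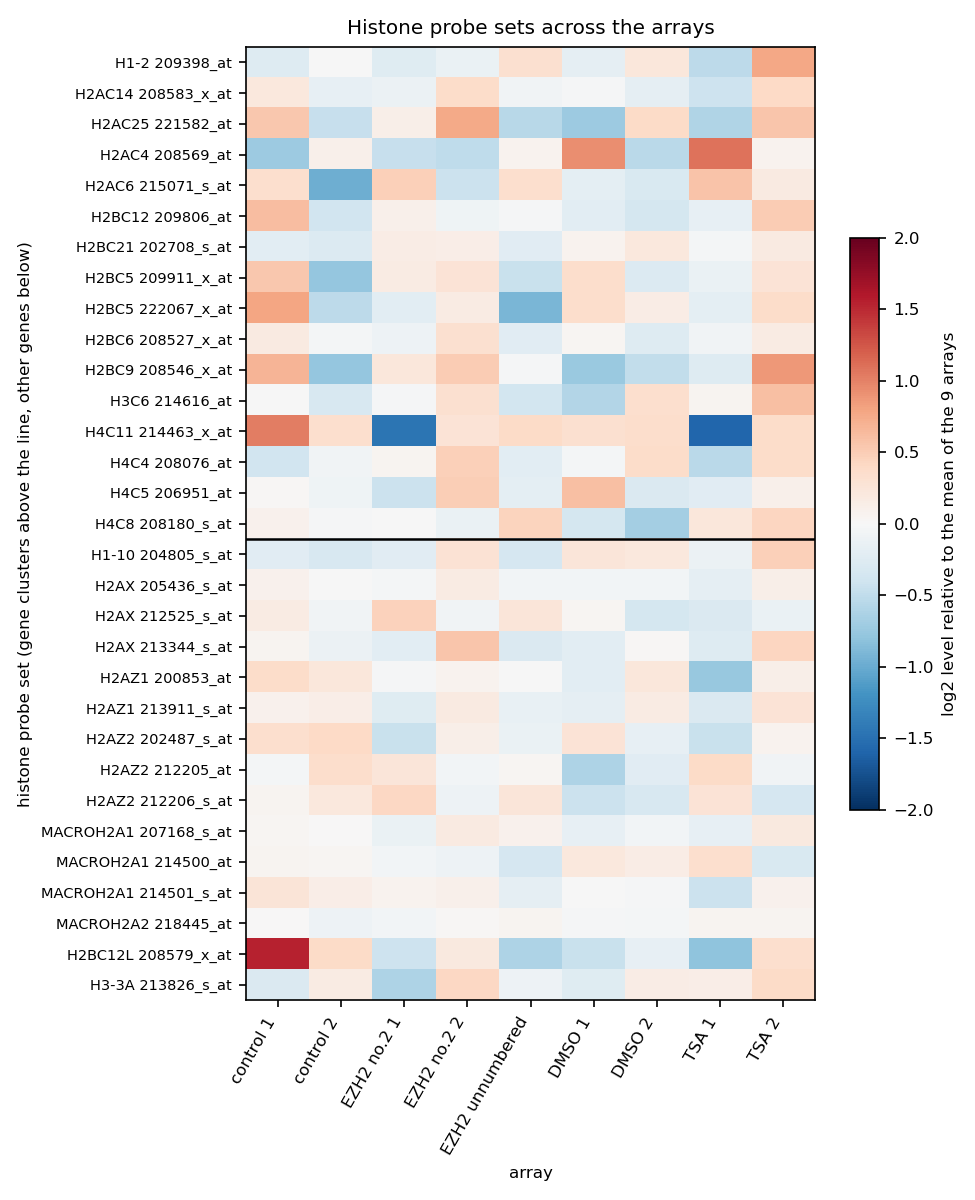
Log2 level of each tested histone probe set (rows) on each array (columns), relative to its mean over the 9 arrays, with red above and blue below that mean. H2BC12L is deepest red on control siRNA replicate 1, H4C11 is deepest blue on EZH2 siRNA no.2 replicate 1 and TSA replicate 1, and the column of TSA replicate 2 is mostly red for cluster genes.

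A further 25 probe sets name several histone genes and were no members. Of these, 14 passed the filter on low values. Their median log2 fold change was −0.38 with EZH2 siRNA no.2 and −0.36 with TSA. The members had 0.02 and 0.09, and all tested probe sets 0.07 and 0.04. In each of the 2 comparisons 3 of 14 were above 0, beside 58.2% and 55.3% of all tested. With the unnumbered siRNA 2 of 14 were above 0 (median −0.26), and in DMSO against the control siRNA 9 of 14 (median 0.09). The brightest of the H4 probe sets, 205967_at, had 4996 and 4623 on the control siRNA arrays, 2175 and 5370 after EZH2 siRNA no.2, 2166 after the unnumbered one, 6802 and 5191 in DMSO and 1232 and 4563 in TSA. As with H4C11, replicate 1 was the low array with EZH2 siRNA no.2 and with TSA. Of the 14, 4 name H3-3A and H3-3B with a pseudogene, and they can share probes or transcripts. In 208755_x_at they gave 15467 and 12850 on the control arrays against 9884 and 11337 after EZH2 siRNA no.2, and 16242 and 15043 in DMSO against 9798 and 13907 in TSA. With EZH2 siRNA no.2 all 4 were lower without overlap (log2 −0.24 to −0.41), beside 12.8% of all tested probe sets. With TSA 3 of the 4 were lower without overlap (log2 −0.36 to −0.42), beside 12.1% of all tested, and 200080_s_at gave −0.0069. Between arrays of the same number, these 3 differed by −0.66 to −0.73 for replicate 1 and by only −0.03 to −0.11 for replicate 2. The member probe set of H3-3A, far dimmer, gave −0.04 and 0.30. These probe sets were not in the fit, and no test is given for them.

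Genes that make or handle histones were described from a list of transcription and processing factors, of which 7 of 12 genes were measured. NPAT, the coactivator of cluster histone genes, gave log2 fold changes of −0.07 (209798_at) and −0.45 (211584_s_at) with EZH2 siRNA no.2, and of 0.60 (SE 0.29) and 0.38 with TSA, where ZNF473 (213130_at) gave 0.56 (SE 0.29). Symplekin, SYMPK, a scaffold of the cleavage complex, had signals of 106 and 119 on the control arrays and 210.0 and 199 after EZH2 siRNA no.2 in probe set 32402_s_at (log2 0.74, SE 0.28, limma, unadjusted p = 0.022, adjusted p = 0.920). In DMSO, without any siRNA, the same SYMPK probe set had 193 and 213, so it also lay above the control siRNA arrays there. ZNF473, a zinc finger protein of histone mRNA processing, had 106 and 128 against 199 and 205 in 213130_at (log2 0.68, SE 0.29, limma, unadjusted p = 0.040, adjusted p = 0.920). Its other probe set, 213124_at, had 210 and 209 against 308 and 212. SLBP, which binds the stem-loop, gave −0.39 (SE 0.26) with EZH2 siRNA no.2. The values of SLBP and NPAT with this siRNA were picked after they were seen. In this list 2 of 10 probe sets were higher at an unadjusted p below 0.05 with EZH2 siRNA no.2 and 0 were lower, beside 3.56% and 1.71% of all tested. With TSA 0 of 10 had such a p. The median log2 fold change of the list was 0.05 and 0.33 in the 2 comparisons, beside 0.07 and 0.04 over all tested. In DMSO against the control siRNA it was −0.18, beside 0.03 over all tested.

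Among 39 probe sets of histone chaperones, which carry and deposit histones, 1 was higher at an unadjusted p below 0.05 with EZH2 siRNA no.2 (NAP1L1 204528_s_at, 1085 and 1302 against 1710 and 1766, log2 0.54, SE 0.24), and 0 with TSA. The other 5 probe sets of NAP1L1 gave −0.16 to 0.43. With TSA the smallest p were those of ASF1A 203428_s_at (log2 −0.50, SE 0.30) and IPO9 213785_at (log2 0.42, SE 0.27), whose other probe sets gave −0.06 and 0.14. Among the 34 S phase probe sets 1 was higher with EZH2 siRNA no.2 (E2F1 2028_s_at, 347 and 352 against 566 and 511, log2 0.59, SE 0.26), while its other probe set, 204947_at, had 627 and 357 against 642 and 382. With TSA 0 had such a p, and the replication factors CDC45 and MCM5 came closest (log2 −0.39 and 0.38). Over all probe sets 3.56% were higher at such a p with EZH2 siRNA no.2 and 1.24% with TSA. Among 15 probe sets of genes often reported to respond to deacetylase inhibitors, 0 had an unadjusted p below 0.05 with TSA in either direction. The smallest p there was for DHRS2, with 49.6 and 47.7 in DMSO against 139 and 80.6 in TSA (log2 0.84, SE 0.43, limma, unadjusted p = 0.077, adjusted p = 1.00). CDKN1A, an inhibitor of cyclin-dependent kinases, came next, with 409 and 445 against 555 and 645 (log2 0.46, SE 0.29). Elsewhere in this list the TSA arrays disagreed, with replicate 1 above and replicate 2 below both DMSO arrays. CLU 208791_at had 1399 and 1136 in DMSO against 2200 and 884 in TSA. GSN 200696_s_at had 1199 and 1011 against 1820 and 717, and TXNIP 201008_s_at had 829 and 332 against 1120 and 181. These were picked after they were seen. With EZH2 siRNA no.2, CRIP1 of the same list was lower, at 539 and 462 against 1060 and 1104 (log2 −1.08, SE 0.30, limma, unadjusted p = 0.0044, adjusted p = 0.920).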

How the data were processed

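The authors' deposited intensity values are MAS5 signals, per the submitters' processing notes, which give no version. The array annotation named 1 gene for 19065 of 22283 probe sets, several for 1043 and none for 2107, the others being control probe sets. Signals were turned into log2(signal + 25.1), the pseudocount being the 20th percentile. The 13665 single-gene probe sets above the filter were fitted together, as group means on 9 arrays, in limma 3.58.1 (R 4.3.3, eBayes with trend, 4 residual and 7.01 prior degrees of freedom). Tests were two-sided, with Benjamini-Hochberg adjustment over all 13665. With 2 arrays on each side the smallest exact permutation p is 0.333, so that test was left out. The fit was also run on simulated data with known changes, as a check of the code only.

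Members and lists were chosen with earlier results of these data known. Named histone genes were H2AZ1, H2AX and H3-3A and, per comparison, those with an unadjusted p below 0.05 or, where under 3 had one in a direction, the 3 smallest p in that direction among groups that did not overlap. The 6 genes apart in TSA were also named. The related lists gave their members with such a p or the 2 smallest. One gene of the naming rule is not reported here, and H3-3B had no probe set of its own. Alternatives covered the pseudocount, the filter, the normalization, the choice of probe sets, the trend, the replicate number as a block, and leaving out arrays singly.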

Additional observations from a re-analysis of the deposited data

How the results depend on the processing

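Under the alternatives run, 0 probe sets passed the adjusted threshold in each of the 5 comparisons, and the lowest adjusted p of limma over all probe sets was 0.263, with the unnumbered siRNA. Of 272 alternative values of the main results 243 stayed within their limits and 29 moved, and of 557 values of single probe sets 26 changed sign. With 2 arrays a group the median standard error of the cluster probe sets was 0.41, and the interval lay within a 2-fold change for 5 of 16 with EZH2 siRNA no.2 and for 4 of 16 with TSA.

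The number of histone probe sets with an unadjusted p below 0.05, which was 1 in each comparison except 0 for the difference of effects, moved as follows. With only the groups of the comparison it was 3 in DMSO, 2 after EZH2 siRNA no.2 and 0 in TSA. After scaling all arrays to 1 common median (the same median) it was 2, 2 and 0. With no filter it was 2 for EZH2 siRNA no.2, 2 for TSA and 3 for the unnumbered siRNA, and with the filter at the 50th percentile it was 0 for TSA. Without the trend it was 1 for the difference of effects. Leaving out each array in turn gave 0 to 3 for DMSO, for EZH2 siRNA no.2 and for TSA, 1 to 3 for the unnumbered siRNA and 0 to 2 for the difference of effects.

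With the replicate number as a block the count was 2 for DMSO, 2 for EZH2 siRNA no.2 and 2 for TSA. Deviations of same-numbered arrays from their group means correlated over all tested probe sets at 0.30 for control siRNA with EZH2 siRNA no.2, at 0.36 for DMSO with TSA and at 0.24 for control siRNA with DMSO, and over the 31 histone probe sets at −0.0072, 0.45 and −0.12. The strongest pair was EZH2 siRNA no.2 with TSA, at 0.41 over all and 0.64 over the 31. EZH2 siRNA no.2 with DMSO gave 0.26 and 0.15, and control siRNA with TSA gave 0.098 and −0.40. No label says that a number marks a shared culture or day, and each group has only 2 numbers, so the block is given here as an alternative and a pairing is neither assumed nor dismissed.

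The median log2 fold change of the histone probe sets with TSA ran from −0.17 to 0.25 as each array was left out, and the difference of effects from −0.13 to 0.29. Adding the probe sets that name several histones gave −0.07 for EZH2 siRNA no.2, 0.00010 for TSA, −0.06 for DMSO, −0.17 for the unnumbered siRNA and 0.06 for the difference. Leaving out those ending in _x_at, a choice made after seeing the data, gave 0.01, 0.09, −0.08, −0.08 and 0.09. Scaling to the same median moved the median of all probe sets from 0.07 to −0.06 with EZH2 siRNA no.2, and that of the histone probe sets to −0.12.

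The sign changes of single probe sets were all in H2AX, H2AZ1 and H3-3A, which were followed in every comparison whatever their values. The other probe sets counted there were named with groups that did not overlap, where leaving out a single array cannot change the sign. The count of sign changes therefore does not show that those others were more stable, and no further cause was tested. For H3-3A in DMSO the log2 fold change was −0.042 after quantile normalization and −0.080 with the same median, and −0.21 to 0.24 as arrays were left out. It ran from −0.55 to 0.48 with EZH2 siRNA no.2 and from −0.27 to 0.18 with the unnumbered siRNA. For H2AX 205436_s_at it was −0.12 with EZH2 siRNA no.2 and −0.049 with TSA at the same median, and 0.060 with the unnumbered siRNA after quantile normalization. As arrays were left out this probe set ran from −0.075 to 0.13 with EZH2 siRNA no.2 and from −0.12 to 0.18 with TSA. H2AX 212525_s_at ran from −0.12 to 0.42 and from −0.25 to 0.13. H2AX 213344_s_at ran from −0.18 to 0.59 and from −0.18 to 0.52, and in DMSO from −0.18 to 0.058. H2AZ1 213911_s_at was −0.078 with TSA at the same median, and ran from −0.27 to 0.27 with TSA, from −0.35 to 0.068 with EZH2 siRNA no.2 and from −0.30 to 0.055 in DMSO. H2AZ1 200853_at with TSA ran from −0.75 to 0.11.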
